A study of Mus musculus with 59 samples.

Results

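Forkhead genes encode transcription factors that share a winged-helix DNA-binding domain. All gene symbols made of Fox, a subfamily letter from a to s and a number were taken from the deposited tables, which gave 44 of 24391 symbols. RNA-seq values in TPM (transcript abundance scaled for transcript length and library size) were compared between embryonic stem cells (ESCs) and embryoid bodies (EBs), and between control and mutant cells, within each of 6 conditional mouse ESC lines. ESCs were grown on mouse embryonic fibroblast (MEF) feeders in LIF with SU5402, PD184352 and CHIR99021, and EBs were formed in suspension for 2 days without them. In the *Pcgf1* line, control cells were ERT2-Cre;*Pcgf1* f/f without 4-hydroxytamoxifen (4-OHT) and *Pcgf1*-KO cells were *Pcgf1* delta/delta with 4-OHT, with 4 control ESC, 5 *Pcgf1*-KO ESC, 5 control EB and 5 *Pcgf1*-KO EB libraries. In the *Ring1A*-pm; *Ring1B*-cpm line all groups carried *Ring1A* pm/pm, and 4-OHT turned the conditional *Ring1B* alleles into pm/pm, with 2 libraries in each of the 4 groups. ERT2-Cre was present in controls and mutants of all 6 lines, each genotype was 1 conditional line, and 4-OHT and genotype cannot be told apart. The other 4 conditional lines (for *Ring1A/B*, where all groups carried a *Ring1a* knockout, *Pcgf2/4*, *Pcgf3/5*, or *Pcgf6*, with 8 libraries each) are given as values without a test, because the condition in the deposited name differed from the label for 21 of their 32 libraries.

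Forkhead factors act in early development as pioneer factors of the endoderm (FOXA), as partners of SMAD proteins in Nodal signalling (FOXH1), as effectors of insulin and stress signalling (FOXO) and as regulators of mesoderm and mesenchyme (FOXC, FOXD, FOXF). Polycomb repressive complex 1 (PRC1) carries RING1A or RING1B with 1 of the PCGF proteins, monoubiquitinates histone H2A, and occupies CpG-rich promoters of many developmental genes in ESCs. PCGF1 belongs to a variant PRC1, and the point mutations of *Ring1A* and *Ring1B* remove the ubiquitination by these complexes while the proteins are still made.

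Promoters of 4 genes are shown because each was called in a tested line, *Foxd1* in both, and because they differ in CpG content. CG dinucleotides are in capitals, and each sequence is the 250 bases before the transcription start on the plus strand of GRCm38.p6, from RefSeq.
Foxc1: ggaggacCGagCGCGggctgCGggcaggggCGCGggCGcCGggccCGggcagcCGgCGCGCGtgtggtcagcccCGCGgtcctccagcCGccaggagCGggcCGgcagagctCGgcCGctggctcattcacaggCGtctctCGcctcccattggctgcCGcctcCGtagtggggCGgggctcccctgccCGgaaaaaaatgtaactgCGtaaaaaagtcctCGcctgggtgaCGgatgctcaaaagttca
Foxf2: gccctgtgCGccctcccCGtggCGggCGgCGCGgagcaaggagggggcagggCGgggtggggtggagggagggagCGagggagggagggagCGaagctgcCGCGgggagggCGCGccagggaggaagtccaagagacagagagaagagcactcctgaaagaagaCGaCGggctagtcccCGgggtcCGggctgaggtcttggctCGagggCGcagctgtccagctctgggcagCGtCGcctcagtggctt
Foxd1: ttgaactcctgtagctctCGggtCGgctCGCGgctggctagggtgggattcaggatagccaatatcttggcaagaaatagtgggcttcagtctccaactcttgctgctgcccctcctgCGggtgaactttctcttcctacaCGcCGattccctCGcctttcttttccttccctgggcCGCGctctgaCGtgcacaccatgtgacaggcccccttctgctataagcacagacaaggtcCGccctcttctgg
Foxr2: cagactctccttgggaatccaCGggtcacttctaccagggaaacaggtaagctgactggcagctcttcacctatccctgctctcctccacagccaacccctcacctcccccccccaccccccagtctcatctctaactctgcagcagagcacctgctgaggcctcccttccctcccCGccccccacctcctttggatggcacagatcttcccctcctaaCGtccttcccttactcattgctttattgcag
The *Foxc1* window (chr13:31806396-31806645) held 29 CG dinucleotides, and 6.78% of all 32851 RefSeq promoter windows held as many or more. The *Foxf2* window (chr13:31625566-31625815) held 21, matched or passed by 16.3% of windows. The *Foxd1* window (chr13:98353995-98354244) held 12, matched or passed by 33.5%, and the *Foxr2* window (chrX:153118538-153118787) held 3, matched or passed by 71.0%. Of the 44 forkhead genes, 28 had a promoter entry, with a median of 19 CG dinucleotides against 6 over all windows. The former takes the window with the most CG dinucleotides of each gene and the latter counts every window, which favours the former.

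By GENCODE positions in mm9, the build the authors mapped to, *Foxc1* and *Foxf2* lie in a cluster with *Foxq1*. The *Foxq1* gene lies at chr13:31650039-31652839, *Foxf2* at chr13:31717685-31723272 and *Foxc1* at chr13:31898515-31902504, with gaps of 64.8 kb and 175 kb. A second cluster on chromosome 8 holds *Foxf1*, *Foxc2* and *Foxl1*, with gaps of 29.2 kb and 9.05 kb. *Foxb1* shares 418 exonic bases with *B230323A14Rik* on the other strand. *Foxq1* shares 1164 with *A530084C06Rik*, which is not analysed here. Whether reads were counted by strand is not given in the sources used here, so part of the TPM of *Foxb1* and *Foxq1* could belong to the partner. The same holds for *Foxo1*, which shares 589 bases with a gene on the other strand. Shorter stretches are shared on the same strand, whatever the strand setting, by *Foxp1* (75 bases with *Eif4e3*), *Foxk2* (26 with *Narf*) and *Foxm1* (144 with *4933413G19Rik*). Overlaps of 89 to 359 bases were found for *Foxd3*, *Foxe1*, *Foxj2* and *Foxp3*.

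The labels of both tested lines were checked first. *Pcgf1* was at 7.30 to 16.6 TPM in control libraries and at 0.627 to 2.77 TPM in *Pcgf1*-KO libraries. *Rnf2*, which encodes RING1B, was at 66.6 to 85.8 TPM in control and at 54.5 to 64.6 TPM in mutant libraries of the *Ring1A*-pm; *Ring1B*-cpm line and was called in neither stage, and a point mutation cannot be seen in gene-level TPM. Of 8 naive ESC markers (*Klf4*, *Esrrb* and others), 8 fell and of 7 formative epiblast markers (*Fgf5*, *Otx2* and others), 7 rose from control ESCs to control EBs in the *Pcgf1* line. The counts were 6 of 8 and 7 of 7 in the *Ring1A*-pm; *Ring1B*-cpm line. Feeder RNA moved with the stage: the summed TPM of 13 fibroblast markers was 215 to 323 in control ESCs and 28.4 to 55.8 in control EBs of the *Pcgf1* line. Libraries 2 and 3, and 4 and 5, of each *Pcgf1*-line group carried neighbouring identifiers and resembled each other more (median absolute log2 difference 0.0775 to 0.237 over 7 pairs) than other libraries of a group (0.295 to 0.735 over 29 pairs), so p-values may partly measure technical spread. Nothing in the labels says that replicates came from separate cultures.

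In the *Pcgf1* line 22 forkhead genes had a mean of at least 1 TPM in control ESCs and 23 after deletion of *Pcgf1*, and the EB counts were 22 and 24. The most abundant in control ESCs were broadly expressed or cell-cycle genes. *Foxo3*, an effector of insulin signalling, had a mean of 99.2 ± 73.8 TPM (SD, n = 4), *Foxm1*, an activator of G2/M genes, 71 ± 25.6, *Foxn3* 55.5 ± 35.3 and *Foxk2* 53.6 ± 17.9. These 4 means did not differ beyond their spread. Most of that spread lay between library pairs: *Foxo3* was at 29, 145, 178 and 44.3 TPM in replicates 1 to 4. Replicates 2 and 3 were the high ones here and in every other group for *Foxo3*. *Foxi1*, a factor of ionocytes, was listed at 0 in all 19 libraries of this line, so 43 forkhead genes were tested there.

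**Figure D1:**
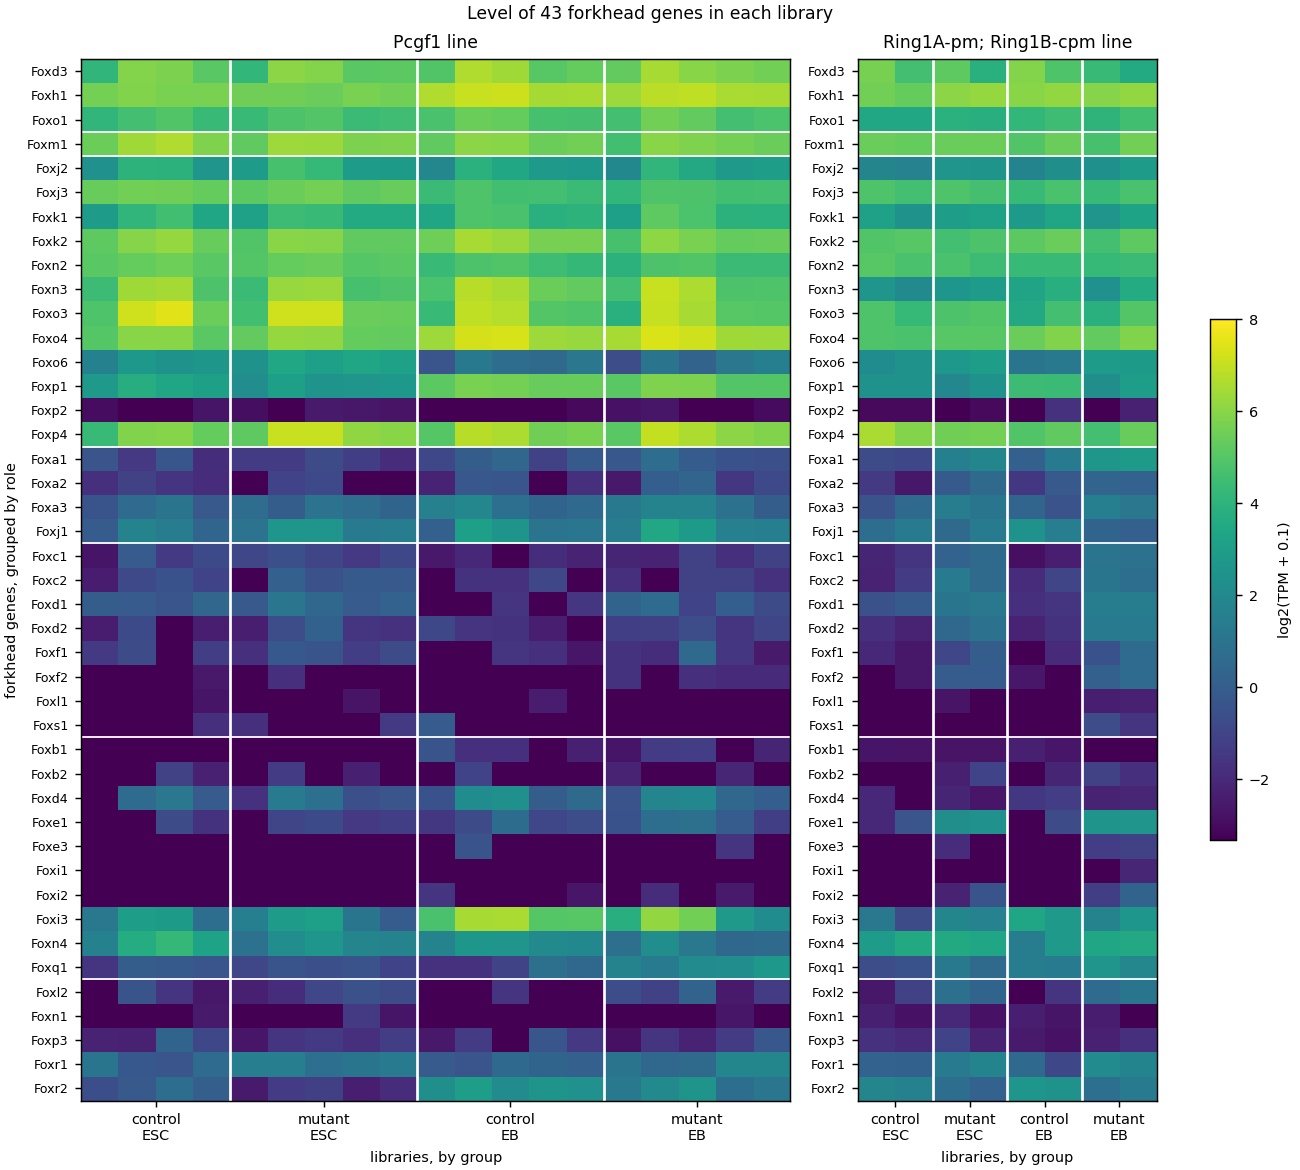
Level of 43 of the 44 forkhead genes (rows, by known role) in each library of the *Pcgf1* and *Ring1A*-pm; *Ring1B*-cpm lines (columns, by labelled group), as log2(TPM + 0.1) in colour. Most broadly expressed genes are light in every column, while *Foxc1*, *Foxc2*, *Foxd2* and *Foxf2* are dark in the control columns of the *Ring1A*-pm; *Ring1B*-cpm line and lighter in its mutant columns.

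The first question was which forkhead genes move as control ESCs become EBs. A gene was called when its limma adjusted p was under 0.05 over all genes tested on the log2(TPM + 0.1) scale, which understates changes of low genes. Of 43 forkhead genes, 11 were called, 6 higher (*Foxh1*, *Foxp1*, *Foxo4*, *Foxi3*, *Foxb1*, *Foxr2*) and 5 lower (among them *Foxj3*, *Foxn2*, *Foxo6* and *Foxd1*). Over all 20594 genes 24.9% were called, 11.5% higher and 13.4% lower, and the median log2 fold change was 0.03 for the forkhead genes and -0.00 for all genes. The share of forkhead genes called was therefore near that of all genes.

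Among the pluripotency and epiblast genes, *Foxh1*, the SMAD partner in Nodal signalling, rose. It was at 49.8, 57.8, 52 and 52.9 TPM in control ESCs (replicates 1 to 4) and at 99.2, 134, 140.3, 88 and 92.7 TPM in control EBs (replicates 1 to 5). All EB libraries were above all ESC libraries (log2 fold change 1.04, SE 0.15, limma adjusted p = 5.54e-05). *Foxd3*, a repressor that maintains pluripotent cells, had means of 41.5 ± 19.5 and 57.6 ± 32.2 TPM, and *Foxo1*, a FOXO factor of the same cells, 22.9 ± 5.55 and 32.3 ± 8.65 TPM, and neither was called.

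Among the broadly expressed genes, *Foxp1* rose most. *Foxp1*, a repressor with a splice form known in ESCs, was at 6.81, 13, 10.2 and 8.49 TPM in control ESCs and at 35.5, 53.1, 49.1, 41.7 and 41.5 TPM in control EBs. The groups did not overlap (log2 fold change 2.21, SE 0.23, limma adjusted p = 1.72e-06). *Foxo4*, another FOXO factor, was at 32.1, 63.4, 62.8 and 34.3 TPM in ESCs and at 81.3, 154, 161, 80.2 and 75.6 TPM in EBs. The groups did not overlap, although the replicate 2 and 3 libraries were the highest in both stages (log2 fold change 1.18, SE 0.32, limma adjusted p = 0.0106).

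*Foxo6*, the FOXO factor best known from the brain, went the other way. It was at 3.01, 6.55, 5.39 and 6.26 TPM in control ESCs and at 0.684, 2.29, 1.57, 1.41 and 2.17 TPM in control EBs, with every EB library below every ESC library (log2 fold change -1.69, SE 0.42, limma adjusted p = 0.00649). *Foxj3* was at 41.6, 47.7, 47.3 and 40.4 TPM in ESCs and at 20.6, 29.8, 24, 24.2 and 21 TPM in EBs. These groups did not overlap either (log2 fold change -0.89, SE 0.15, limma adjusted p = 0.000246). *Foxn2* was at 34.7, 39.4, 45.2 and 34.4 TPM in ESCs and at 20.5, 28.8, 29.9, 22.2 and 18.8 TPM in EBs. EBs were lower in 4 of 4 same-numbered pairs (log2 fold change -0.69, SE 0.20, limma adjusted p = 0.0139), and the call was lost without control ESC replicate 3 (adjusted p = 0.0514).

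The largest rise was in a placode gene. *Foxi3*, a factor of the preplacodal ectoderm, was at 2.22, 8.1, 7.06 and 1.61 TPM in control ESCs and at 26.8, 92.8, 94, 31.8 and 33.7 TPM in control EBs. All EB libraries were above all ESC libraries, and replicates 2 and 3 were the highest in both stages (log2 fold change 3.62, SE 0.81, limma adjusted p = 0.00269). *Foxr2*, a gene of the male germ line that is known to be switched on in some tumours, was at 0.558, 0.794, 1.59 and 0.986 TPM in ESCs and at 4.85, 7.77, 4.24, 5.71 and 5.12 TPM in EBs. The groups did not overlap (log2 fold change 2.44, SE 0.41, limma adjusted p = 0.000233).

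A stromal gene fell at a low level. *Foxd1*, a factor of kidney stroma and mesenchyme, was at 0.908, 0.862, 0.692 and 1.22 TPM in control ESCs and at 0, 0, 0.23, 0 and 0.247 TPM in control EBs, where 3 of 5 libraries listed it at 0. The groups did not overlap (log2 fold change -2.62, SE 0.47, limma adjusted p = 0.000464), and with a pseudocount of 1 TPM the log2 fold change was -0.81. *Foxb1*, a factor of the diencephalon, was listed at 0 in all 4 control ESC libraries, while control EBs ranged from 0 to 0.676 TPM, and its call (limma adjusted p = 0.0308) was lost in 7 of 19 fits that left out 1 library (adjusted p up to 0.0780). Of the 13 fibroblast markers, 8 fell in the same comparison and 2 (*Dcn*, *Thy1*) rose, with none at 0 in all control libraries, and the part of feeder RNA in the falls was not tested. Fewer cells of a type and less RNA per cell cannot be told apart in such bulk samples.

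Same-numbered libraries deviated together, so the fit was repeated with these numbers as blocks. Then 24 forkhead genes were called (15 higher and 9 lower), beside 43.9% of all genes (20.7% higher and 23.3% lower). The genes added included *Foxp4*, a partner of *Foxp1* (log2 fold change 0.62, SE 0.09, limma adjusted p = 7.63e-05), *Foxo1* (log2 fold change 0.53, SE 0.10, limma adjusted p = 0.00049), *Foxo3* (log2 fold change -0.53, SE 0.11, limma adjusted p = 0.00122) and *Foxm1* (log2 fold change -0.41, SE 0.10, limma adjusted p = 0.00426). The other 9 were *Foxj1*, *Foxk1*, *Foxk2*, *Foxn3*, *Foxd3*, *Foxd4* and *Foxe1*, which were higher, and *Foxc1* and *Foxn4*, which were lower. With 1 mean per library series and group, a fit chosen after seeing the data, 6 forkhead genes were called, beside 13.6% of all genes. *Foxo4*, *Foxo6*, *Foxn2* and *Foxb1* were among those that lost their call in that fit.

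**Figure D2:**
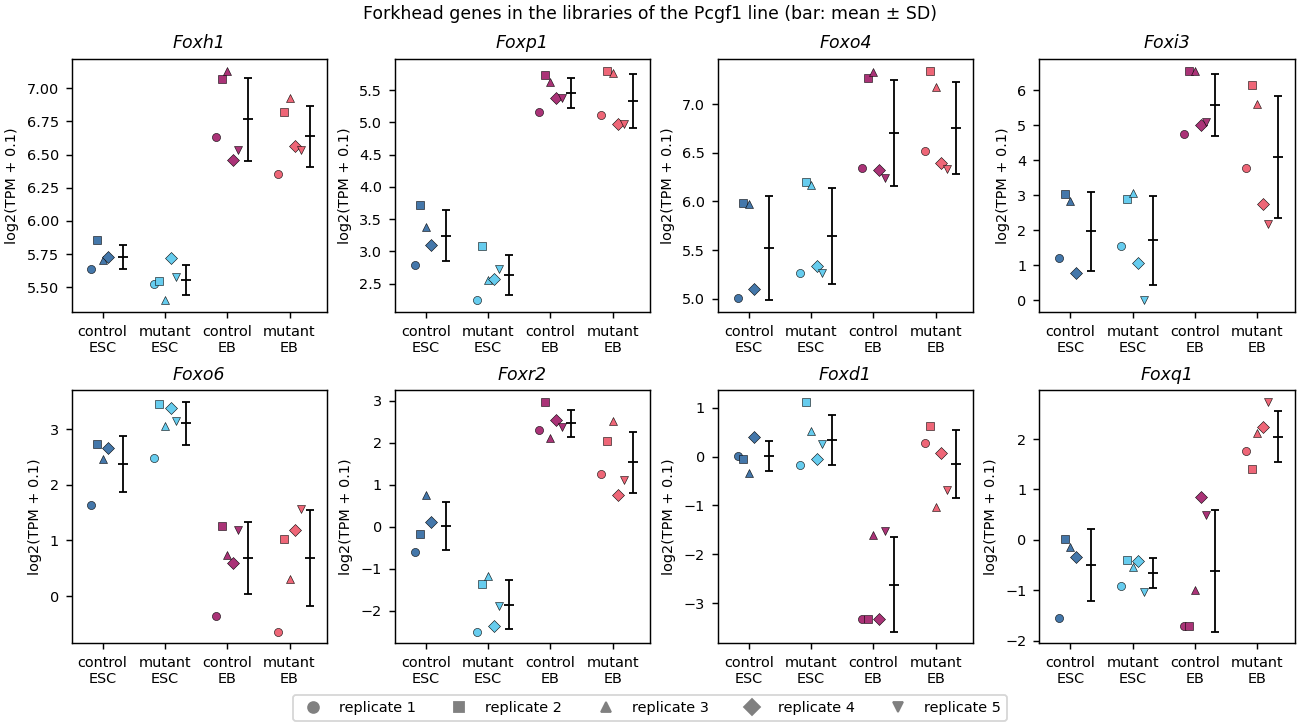
Levels of 8 forkhead genes as log2(TPM + 0.1) in every library of the *Pcgf1* line, by labelled group. Each point is a library, its shape gives the replicate number, and bars are the mean ± SD. *Foxq1* lies between 2.54 and 6.56 TPM in *Pcgf1*-KO EBs and at 1.70 TPM or less in the other 3 groups, and *Foxr2* is at 0.342 TPM or less in *Pcgf1*-KO ESCs.

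In ESCs, deletion of *Pcgf1* changed 1 of 43 forkhead genes, beside 0.641% of all genes (0.320% in each direction). *Foxr2* was at 0.558, 0.794, 1.59 and 0.986 TPM in control ESCs and at 0.0758, 0.288, 0.342, 0.0942 and 0.168 TPM in *Pcgf1*-KO ESCs. The groups did not overlap and the KO library was lower in 4 of 4 pairs (log2 fold change -1.89, SE 0.41, limma adjusted p = 0.0417). The call was lost in 13 of 19 fits that left out 1 library (adjusted p 0.0330 to 0.161) and with a pseudocount of 1 TPM.

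With the replicate block 6 forkhead genes were called in ESCs, 3 higher and 3 lower, beside 5.31% of all genes (2.53% and 2.78%). *Foxp4* was at 20.4, 58.3, 61.1 and 39.8 TPM in control ESCs and at 36.9, 134, 131, 68.6 and 63.4 TPM in *Pcgf1*-KO ESCs. The KO library was higher in 4 of 4 pairs, while the groups overlapped because replicate 1 was low and replicates 2 and 3 were high in both (log2 fold change 0.97, SE 0.09, limma adjusted p = 0.000157). *Foxj1*, the master factor of motile cilia (log2 fold change 1.02, SE 0.22, limma adjusted p = 0.015), and *Foxo4* (log2 fold change 0.23, SE 0.06, limma adjusted p = 0.0332) were also higher. *Foxn4*, a factor of retinal and spinal progenitors (log2 fold change -1.26, SE 0.30, limma adjusted p = 0.0262), *Foxp1* (log2 fold change -0.58, SE 0.12, limma adjusted p = 0.0147) and *Foxr2* (log2 fold change -1.85, SE 0.34, limma adjusted p = 0.00678) were lower. A fit on 1 mean per library series and group, with the series as block, called 1 forkhead gene, beside 0.529% of all genes.

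In EBs, deletion of *Pcgf1* raised *Foxq1* and *Foxd1*, 2 of 43 forkhead genes, beside 1.95% of all genes (1.08% higher and 0.874% lower). *Foxq1*, a forkhead repressor known from hair, stomach and epithelial tumours, was at 0.205, 0.207, 0.404, 1.7 and 1.3 TPM in control EBs and at 3.29, 2.54, 4.24, 4.62 and 6.56 TPM in *Pcgf1*-KO EBs. The groups did not overlap and the KO library was higher in 5 of 5 pairs (log2 fold change 2.66, SE 0.49, limma adjusted p = 0.00721). *Foxd1* was at 0, 0, 0.23, 0 and 0.247 TPM in control EBs and at 1.11, 1.45, 0.387, 0.957 and 0.524 TPM in *Pcgf1*-KO EBs. It was also higher in 5 of 5 pairs without overlap (log2 fold change 2.47, SE 0.45, limma adjusted p = 0.00654), and its log2 fold change was 0.76 with a pseudocount of 1 TPM. Both calls held in 19 of 19 fits that left out 1 library, and both were lost when only the 2 groups were fitted or with 1 mean per library series (adjusted p = 0.198 for *Foxq1* and 0.145 for *Foxd1* in the latter).

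In ESCs neither gene was called. *Foxq1* was at 0.239, 0.908, 0.81 and 0.694 TPM in control and at 0.433, 0.659, 0.586, 0.647 and 0.385 TPM in *Pcgf1*-KO ESCs, and *Foxd1* at 0.79, 2.07, 1.34, 0.86 and 1.1 TPM in *Pcgf1*-KO ESCs. These ESC groups overlapped for both genes. The test of whether the *Pcgf1*-KO effect differed between EBs and ESCs called no forkhead gene and 1 of 20594 genes (0.00486%). With the replicate block it called *Foxq1* (log2 fold change 2.94, SE 0.63, limma adjusted p = 0.0334) and *Foxp4* (log2 fold change -0.80, SE 0.13, limma adjusted p = 0.00858), beside 1.62% of all genes (0.835% higher and 0.782% lower). With 1 mean per library series and group, chosen after seeing the data, it called no gene, with or without the series as block.

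Markers of other cell types moved in the same EBs. The summed TPM of the fibroblast markers was 28.4 to 55.8 in control and 11.4 to 21.9 in *Pcgf1*-KO EBs, with *Thy1* lower and *Lum* at 0 in all KO libraries. Of 7 primitive endoderm markers 3 rose (*Gata4*, *Gata6*, *Pdgfra*), and their summed TPM was 9.96 to 27.6 in control and 11.4 to 33 in *Pcgf1*-KO EBs. Stage markers moved too. Of 8 naive markers 2 rose (*Nr0b1*, *Tfcp2l1*), and 6 with the replicate block, with a summed TPM of 188 to 449 in control and 323 to 950 in *Pcgf1*-KO EBs. Of 7 formative markers none was called, and 3 were lower with the block, with a summed TPM of 1365 to 3541 and 502 to 2394. The part of these cells and of the stage in the changes of *Foxq1*, *Foxd1* and *Foxi3* was not tested.

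With the replicate block 6 forkhead genes were called in EBs, 3 higher and 3 lower, beside 10.4% of all genes (4.83% and 5.58%). *Foxi3* was at 26.8, 92.8, 94, 31.8 and 33.7 TPM in control EBs and at 13.6, 71.2, 48.2, 6.67 and 4.43 TPM in *Pcgf1*-KO EBs. It was lower in 5 of 5 pairs while the groups overlapped (log2 fold change -1.49, SE 0.28, limma adjusted p = 0.00326). *Foxk2*, a broadly expressed factor, was lower (means 63.3 ± 20.3 and 45.7 ± 15.7 TPM, log2 fold change -0.48, SE 0.09, limma adjusted p = 0.00276), as was *Foxn4* (log2 fold change -1.12, SE 0.28, limma adjusted p = 0.0184). *Foxl2*, the factor of ovarian granulosa cells, was higher at under 1 TPM on average in both groups (log2 fold change 1.92, SE 0.53, limma adjusted p = 0.0314).

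From ESCs to EBs without *Pcgf1*, 10 forkhead genes were called, 7 higher and 3 lower, beside 18.3% of all genes (8.13% higher and 10.2% lower). *Foxp1* was at 4.61, 8.4, 5.79, 5.84 and 6.5 TPM in *Pcgf1*-KO ESCs and at 34.6, 55.7, 54.4, 31.4 and 31.3 TPM in *Pcgf1*-KO EBs. *Foxr2* was at 2.29, 4.02, 5.64, 1.59 and 2.07 TPM in *Pcgf1*-KO EBs. Both rose without overlap (*Foxp1*: log2 fold change 2.69, SE 0.22, limma adjusted p = 1.26e-07, *Foxr2*: log2 fold change 3.40, SE 0.39, limma adjusted p = 5.03e-06). *Foxh1* stood at 45.9, 46.7, 42.1, 52.6 and 47.7 TPM and then at 81.7, 113, 121, 94.7 and 92.6 TPM (log2 fold change 1.09, SE 0.14, limma adjusted p = 2.36e-05). *Foxo4* stood at 38.3, 73.3, 72, 40.2 and 38.4 TPM and then at 91.4, 162, 145, 84.3 and 80.5 TPM (log2 fold change 1.11, SE 0.30, limma adjusted p = 0.0145). The groups were again apart for both genes, and these 4 genes had also risen in the controls.

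*Foxq1* rose between these groups (log2 fold change 2.71, SE 0.49, limma adjusted p = 0.000599) as did *Foxi3*, with overlap (2.82, 7.29, 8.18, 2.01 and 0.896 TPM in *Pcgf1*-KO ESCs, log2 fold change 2.38, SE 0.76, limma adjusted p = 0.0351). The *Foxi3* call was lost in 6 of 19 fits that left out 1 library (adjusted p up to 0.104). *Foxa1*, an endoderm pioneer factor, ranged from 0.17 to 0.516 TPM among *Pcgf1*-KO ESC libraries and from 0.578 to 1.53 TPM among the EB libraries. It was higher in 5 of 5 pairs (log2 fold change 1.18, SE 0.40, limma adjusted p = 0.048), and the call was lost in 11 of 19 such fits (adjusted p up to 0.129).

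*Foxo6*, *Foxj3* and *Foxn2* fell as in the controls. *Foxo6* was at 5.48, 10.8, 8.24, 10.3 and 8.76 TPM and then at 0.541, 1.94, 1.13, 2.17 and 2.84 TPM (log2 fold change -2.42, SE 0.40, limma adjusted p = 0.000268). *Foxj3* was at 35.5, 44.3, 49.1, 38 and 41 TPM and then at 18.1, 29, 28.1, 23.8 and 24.4 TPM (log2 fold change -0.76, SE 0.14, limma adjusted p = 0.000843). *Foxn2* was at 30.9, 40.6, 42.7, 32.2 and 34.7 TPM and then at 15.2, 28.6, 30.2, 20.9 and 21.3 TPM (log2 fold change -0.67, SE 0.18, limma adjusted p = 0.0151). In the fit on 1 mean per library series and group, *Foxn2*, *Foxo4*, *Foxi3* and *Foxa1* lost their call between these groups. With the replicate block 21 forkhead genes were called, 14 higher and 7 lower, beside 36.8% of all genes (16.8% and 20%), and *Foxa2*, the node and definitive endoderm factor, was among those added (log2 fold change 1.48, SE 0.42, limma adjusted p = 0.0112). *Foxe1*, a thyroid and foregut factor called in the controls with the block, was at 0, 0, 0.509 and 0.218 TPM in ESCs of the control group and at 0, 0.414, 0.491, 0.271 and 0.323 TPM in ESCs without *Pcgf1*. The respective EB values were 0.258, 0.519, 1.52, 0.426 and 0.546 TPM, and 0.613, 1.59, 1.71, 0.879 and 0.33 TPM without *Pcgf1*.

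In the *Ring1A*-pm; *Ring1B*-cpm line, 2 of 44 forkhead genes were called from control ESCs to control EBs, both higher, beside 4.73% of all 20279 genes (2.73% higher and 2.00% lower). *Foxp1* was at 5.6 and 5.5 TPM in control ESCs and at 21.8 and 20.8 TPM in control EBs (log2 fold change 1.92, SE 0.31, limma adjusted p = 0.0186). *Foxq1* was at 0.531 and 0.614 TPM and then at 2.65 and 2.52 TPM (log2 fold change 2.00, SE 0.40, limma adjusted p = 0.0376). With 2 libraries a group these calls were fragile, and leaving out 1 library at a time lost the *Foxp1* call in 6 of 8 fits (adjusted p up to 0.138) and the *Foxq1* call in 8 of 8 (adjusted p 0.0648 to 0.177). The controls here already carry *Ring1A* pm/pm, so they are not wild type. Other genes called in the *Pcgf1* line had levels as follows in control ESCs and then control EBs. *Foxi3* was at 2.2 and 0.519 TPM and then 10.2 and 6.63 TPM, and *Foxh1* at 48.3 and 39.6 TPM and then 63 and 70.8 TPM. *Foxo4* was at 29.2 and 26.5 and then 42.6 and 57 TPM, *Foxo6* at 4.39 and 5.51 and then 2.04 and 2.28 TPM, and *Foxr2* at 3.46 and 3.07 and then 6.15 and 5.33 TPM. None of these 5 genes was called. *Foxj3* (29.6 and 24.4 TPM and then 19.9 and 27.1 TPM) and *Foxn2* (33.4 and 26.9 TPM and then 19.7 and 20.2 TPM) were not called either.

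In ESCs of this line the point mutations raised 6 of 44 forkhead genes and lowered none, beside 2.34% of all genes higher and 0.197% lower (2.54% in all). Of 8 mesoderm and mesenchyme genes, 4 rose (*Foxc1*, *Foxc2*, *Foxd2*, *Foxf2*), and of 4 endoderm, node and cilia genes 1 (*Foxa1*). The median log2 fold change was 0.42 for the forkhead genes and 0.12 for all genes. Median-of-ratios scaling set the latter to 0.

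*Foxc1*, a factor of head mesenchyme and the eye, was at 0.125 and 0.235 TPM in control and at 1.09 and 1.4 TPM in mutant ESCs (log2 fold change 2.28, SE 0.44, limma adjusted p = 0.0442). *Foxc2*, its paralogue of lymphatic vessels, was at 0.122 and 0.287 TPM and at 2.37 and 1.4 TPM (log2 fold change 2.72, SE 0.53, limma adjusted p = 0.0475). *Foxd2*, a factor of mesenchyme, was at 0.19 and 0.12 TPM and at 1.26 and 1.85 TPM (log2 fold change 2.69, SE 0.44, limma adjusted p = 0.0286). For these 3 genes, as for *Foxf2* and *Foxa1*, both mutant libraries were above both control libraries.

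*Foxf2*, a factor of gut mesenchyme and pericytes, was at 0 and 0.0662 TPM in control and at 0.888 and 0.868 TPM in mutant ESCs (log2 fold change 2.92, SE 0.47, limma adjusted p = 0.0283). *Foxa1* was at 0.52 and 0.442 TPM and at 2.83 and 3.59 TPM (log2 fold change 2.5, SE 0.46, limma adjusted p = 0.0385). All of these 5 genes stayed at 3.59 TPM or less. None of their calls was left in any of the 8 fits that left out 1 library, where the log2 fold changes ran from 1.99 to 3.29 and the adjusted p from 0.0608 to 0.251. With a pseudocount of 1 TPM their log2 fold changes lay between 0.86 and 1.5 and *Foxa1* alone lost its call (adjusted p = 0.0573).

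In EBs of this line 10 of 44 forkhead genes were called, 9 higher and 1 lower, beside 3.76% of all genes higher and 0.764% lower (4.53% in all). Of the mesoderm and mesenchyme genes 5 of 8 rose (*Foxc1*, *Foxd1*, *Foxd2*, *Foxf2*, *Foxs1*). *Foxe1*, *Foxo6* and *Foxl2* rose too, and *Foxp1* fell. The median log2 fold change was 0.60 for the forkhead genes and 0.10 for all genes.

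*Foxc1* was at 0.0381 and 0.0932 TPM in control and at 1.92 and 1.79 TPM in mutant EBs (log2 fold change 3.58, SE 0.44, limma adjusted p = 0.0121). *Foxd1* was at 0.185 and 0.227 TPM and at 2.66 and 2.66 TPM (log2 fold change 3.18, SE 0.39, limma adjusted p = 0.0121). *Foxd2* was at 0.116 and 0.213 TPM and at 2.34 and 2.55 TPM (log2 fold change 3.29, SE 0.44, limma adjusted p = 0.0138). The mutant values of these 3 genes ran from 1.79 to 2.66 TPM, and all control values were 0.227 TPM or less.

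*Foxf2* was at 0.0642 and 0 TPM in control and at 1 and 1.48 TPM in mutant EBs (log2 fold change 3.36, SE 0.47, limma adjusted p = 0.0154). *Foxs1*, a factor of pericytes and neural crest derivatives, was listed at 0 in both control EB libraries and at 0.532 and 0.232 TPM in mutant EBs (limma adjusted p = 0.0297), and both ESC groups listed it at 0. No group pair of mutant and control EBs overlapped for these genes.

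*Foxe1* had the highest mutant level of the genes that rose from near 0. It was at 0 and 0.5 TPM in control and at 5.62 and 5.86 TPM in mutant EBs (log2 fold change 4.58, SE 0.87, limma adjusted p = 0.0343), and at 0.148 and 0.701 TPM in control and 4.71 and 5.13 TPM in mutant ESCs, where it was not called. *Foxl2* was at 0 and 0.221 TPM and at 1.44 and 1.99 TPM in EBs (log2 fold change 3.32, SE 0.72, limma adjusted p = 0.0482), and at 0.0657 and 0.373 TPM and 1.73 and 1.16 TPM in ESCs. For both genes 1 control EB library was at 0, so the fitted fold changes depend on the pseudocount, and with 1 TPM they were 2.46 and 1.29 on the log2 scale.

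*Foxo6*, which was lower in EBs than in ESCs of the *Pcgf1* controls, was at 2.04 and 2.28 TPM in control and at 7.45 and 7.03 TPM in mutant EBs (log2 fold change 1.70, SE 0.27, limma adjusted p = 0.0206). Its ESC values were 6.41 and 7.89 TPM in mutants, and the mutant EB values lay within that range. *Foxp1* was the gene that fell, from 21.8 and 20.8 TPM in control to 4.77 and 8.12 TPM in mutant EBs (log2 fold change -1.76, SE 0.31, limma adjusted p = 0.0285). In ESCs it was at 3.63 and 5.29 TPM in mutants and overlapped the mutant EBs. Leaving out 1 library at a time left 0 to 6 of the 10 calls, and *Foxe1*, *Foxp1* and *Foxl2* lost theirs in 8 of 8 fits (adjusted p up to 0.214).

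From mutant ESCs to mutant EBs of this line no forkhead gene was called and 0.133% of all genes were. The test of whether the mutant effect differed between EBs and ESCs called none either, and 2 of 20279 genes (0.00986%). *Foxa1* and *Foxc2*, called in ESCs only, were at 1 and 2.45 TPM and 0.167 and 0.41 TPM in control EBs and at 6.26 and 7.01 TPM and 2 and 1.62 TPM in mutant EBs. *Foxq1* was at 2.3 and 1.41 TPM in mutant ESCs and at 5.82 and 3.74 TPM in mutant EBs. *Foxd1* was at 0.606 and 0.827 TPM in control and at 2.01 and 2.21 TPM in mutant ESCs. None of these comparisons of mutant with control libraries was called.

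*Foxr2* was lower in mutant libraries of this line too, at 1.59 and 1.1 TPM in mutant ESCs and at 1.65 and 2.42 TPM in mutant EBs, without overlap with the controls of the same stage (limma adjusted p = 0.124 in ESCs and limma adjusted p = 0.0632 in EBs, neither called). *Foxi3* was at 3.61 and 3.16 TPM in mutant ESCs and at 3.24 and 6.05 TPM in mutant EBs. *Foxh1* was at 66 and 74.9 TPM and 60.6 and 71.9 TPM, and *Foxo4* at 33.6 and 33 TPM and 38.7 and 57.6 TPM. *Foxj3* was at 29 and 25.3 TPM and 20.6 and 26.9 TPM, and *Foxn2* at 26.6 and 21.5 TPM and 19 and 21.3 TPM. None of these was called between mutants and controls.

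**Figure D3:**
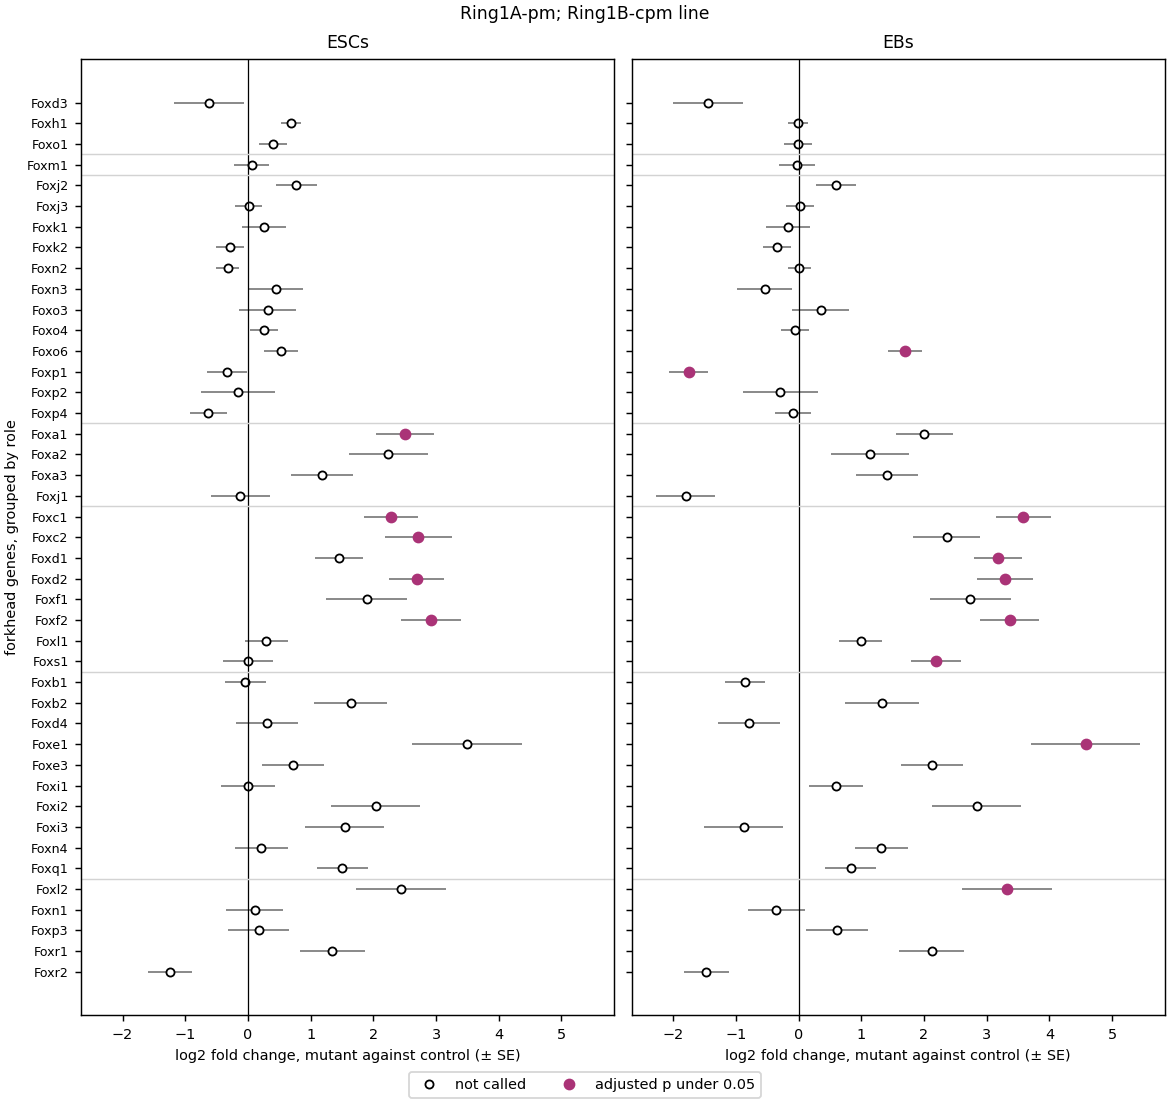
Log2 fold change of mutant against control, ± SE from limma, for forkhead genes of the *Ring1A*-pm; *Ring1B*-cpm line in ESCs and EBs (2 libraries per group). *Foxe1* in EBs is farthest to the right at 4.58, and *Foxp1* in EBs is at -1.76.

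Markers of mesenchyme and feeders moved with these genes. The summed TPM of the 13 fibroblast markers was 47.1 to 50.5 in control and 87.5 to 91.1 in mutant ESCs, and 35.3 to 40.5 in control and 92.9 to 97.5 in mutant EBs. In mutant EBs 5 of 13 rose (*Col1a1*, *Col1a2*, *Col5a1*, *Thy1*, *Twist2*), and in mutant ESCs 1 (*Col5a1*), with *Lum* at 0 in both control groups and in mutant ESCs. Of 7 primitive endoderm markers 2 rose in mutant ESCs and 2 in mutant EBs, with summed TPM of 17.6 to 24 in control and 41 to 47.4 in mutant EBs. The part of such cells in the forkhead changes was not tested. Stage markers moved as well, with 5 of 7 formative markers lower and 2 of 8 naive markers higher in mutant EBs, in the same comparison in which *Foxp1* fell.

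The study sorted genes with RING1B binding, from ChIP-seq, into those where binding was higher in EBs (Group 1), alike (Group 2) and lower in EBs (Group 3). Of the 44 forkhead genes, 20 were in these lists, with *Foxo6* in Group 1, *Foxi3* in Group 3 and 18 in Group 2. *Foxo6* fell and *Foxi3* rose from control ESCs to control EBs of the *Pcgf1* line, as given above. In mutant ESCs of the *Ring1A*-pm; *Ring1B*-cpm line 6 of 20 listed forkhead genes rose and 0 of 24 others, beside 11% of all listed genes and 1.61% of all other genes. In mutant EBs it was 8 of 20 and 1 of 24 (*Foxs1*), beside 16.3% and 2.71%. In *Pcgf1*-KO EBs it was 2 of 20 and 0 of 23 tested, beside 5.32% and 0.726%. The promoter windows, taking the one with the most CG dinucleotides of each gene, held a median of 20.5 for the 12 listed genes that had an entry (6 to 29). The median was 17.5 for the 16 others (3 to 48). *Foxc1*, *Foxd1* and *Foxf2*, printed above, are listed and *Foxr2* is not.

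Genes of pathways in which forkhead factors act were read from fixed lists, without a test of a list. Over all genes, 11.5% rose and 13.4% fell from control ESCs to control EBs of the *Pcgf1* line. In *Pcgf1*-KO against control EBs 1.08% rose and 0.874% fell, and 4.83% and 5.58% with the replicate block. In the *Ring1A*-pm; *Ring1B*-cpm line 2.34% rose in mutant ESCs and 3.76% in mutant EBs. Of 9 genes of the FOXH1-SMAD pathway, 3 rose from control ESCs to control EBs of the *Pcgf1* line (among them *Lefty1* and *Lefty2*) and 2 fell (*Gsc*, *Tdgf1*). *Lefty1*, a Nodal inhibitor, went from 50.3 ± 5.92 to 292 ± 90.8 TPM (SD, n = 4 and 5), and *Lefty2* from 81.9 ± 20.1 to 123 ± 10.2. In *Pcgf1*-KO EBs *Lefty2* alone of the list was called, at 213 ± 47.3 TPM. In mutant EBs of the *Ring1A*-pm; *Ring1B*-cpm line *Nodal* was the 1 gene of the list that rose.

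Of 9 endoderm genes linked to FOXA2, *Sox17* and *Hhex* (2 genes) were lower in EBs than in ESCs of the *Pcgf1* controls, and 3 rose in *Pcgf1*-KO against control EBs. *Gata6*, a primitive endoderm factor, was at 0.678 ± 0.436 TPM in control and 4.85 ± 2.78 TPM in *Pcgf1*-KO EBs, *Gata4* at 1.84 ± 0.664 and 4.94 ± 1.32, and *Hhex* at 7.66 ± 0.833 and 15 ± 3.82. *Foxa2* itself stayed at a mean of 0.353 ± 0.347 and 0.586 ± 0.474 TPM. With the replicate block 5 of the 9 were higher, *Sox17* and *Sox7* being added. In the *Ring1A*-pm; *Ring1B*-cpm line 2 of 9 rose in mutant ESCs (*Gata4*, *Gata6*) and 2 in mutant EBs (*Gata6*, *Hhex*).

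Of 7 mesenchyme genes linked to FOXC and FOXF, 1 rose (*Meox1*) and 3 fell (*Pdgfra*, *Pdgfrb*, *Prrx1*) between ESCs and EBs of the *Pcgf1* controls, while *Pdgfra* and *Twist1* rose in *Pcgf1*-KO EBs. *Twist1*, a factor of mesenchyme, was at 3.3 ± 1.35 TPM in control and 8.76 ± 1.94 TPM in *Pcgf1*-KO EBs. It was at 3.84 ± 0.693 and 15.2 ± 1.49 TPM in control and mutant EBs of the *Ring1A*-pm; *Ring1B*-cpm line (n = 2 each), where *Pdgfra* rose beside it. Of 12 FOXO-linked genes 1 rose (*Bcl2l11*) and 3 fell (*Bcl6*, *Klf2*, *Sod2*) between ESCs and EBs of the *Pcgf1* controls, and of 9 G2/M genes linked to FOXM1 1 rose (*Plk1*). None of the FOXO-linked or G2/M genes was called between *Pcgf1*-KO and control cells in either stage, and with the replicate block 2 of 12 (*Cited2* higher, *Irs2* lower) and 1 of 9 (*Plk1* lower) were, in EBs.

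Other forkhead genes with a group mean of at least 5 TPM were called in no comparison without the block. In the *Pcgf1* line *Foxk1*, a broadly expressed factor of metabolism and autophagy, had means from 14.7 TPM in control ESCs to 20.5 TPM in *Pcgf1*-KO EBs. *Foxj2* had means from 8.55 TPM in control EBs to 13.6 TPM in *Pcgf1*-KO ESCs, and *Foxj1* from 2 TPM in control ESCs to 5.27 TPM in *Pcgf1*-KO EBs. *Foxn4* had its highest mean in control ESCs (11 ± 6.59 TPM) and its lowest in *Pcgf1*-KO EBs (2.26 ± 1.38 TPM). EBs of the *Ring1A*-pm; *Ring1B*-cpm line went the other way for both genes, without overlap. *Foxn4* was at 2.66 and 6.7 TPM in control and at 10.2 and 11.2 TPM in mutant EBs there. *Foxj1* was at 5.6 and 2.81 TPM in control and at 1.14 and 1 TPM in mutant EBs. The ESC groups of that line overlapped for both genes. In the *Ring1A*-pm; *Ring1B*-cpm line *Foxd3* was at 59.9 and 29.7 TPM in control and at 19.9 and 12 TPM in mutant EBs, with replicate 1 above replicate 2 in each group and no overlap between them. *Foxp4* there had its highest mean in control ESCs (76.8 ± 25.1 TPM, with libraries at 94.5 and 59 TPM). It was at 47.2 and 49.2 TPM in mutant ESCs, at 30.6 and 37.5 TPM in control EBs and at 24.8 and 40.9 TPM in mutant EBs.

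The remaining 13 forkhead genes were neither called in these lines without the block nor at a mean of 5 TPM in any group. They were the endoderm genes *Foxa2* and *Foxa3*, the mesoderm genes *Foxf1* and *Foxl1*, the neural and ectoderm genes *Foxb2*, *Foxd4*, *Foxe3*, *Foxi1* and *Foxi2*, and *Foxn1*, *Foxp2*, *Foxp3* and *Foxr1*. *Foxr1*, a germ-line gene, reached a mean of 3.82 TPM in mutant EBs of the *Ring1A*-pm; *Ring1B*-cpm line. *Foxp3*, the factor of regulatory T cells, and *Foxn1*, that of the thymic epithelium, had their highest group means at 0.458 TPM in control ESCs of the *Pcgf1* line and at 0.0914 TPM in mutant ESCs of the *Ring1A*-pm; *Ring1B*-cpm line.

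The 4 other lines gave the highest values of several of these genes. In the *Ring1A/B* line all groups carried *Ring1a*-/-, and label and deposited name matched for the libraries labelled control ESC and mutant EB. *Rnf2*, the gene to be deleted, was at 78.2 and 77.2 TPM in the former and no lower in the latter, at 78.1 and 80.5 TPM. Gene-level TPM did not bear out the mutant label, but the labelled stage differs too, so these values cannot decide about the label. *Foxq1* was at 0.728 and 1.13 TPM in the former and at 29.2 and 33.2 TPM in the latter. *Foxa1* was at 0.824 and 0.887 TPM and at 19.1 and 18.2 TPM. Both genes were higher in the libraries labelled mutant EB than in any library of the tested lines.

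The mesenchyme and ectoderm genes of the *Ring1A*-pm; *Ring1B*-cpm line were also high in the *Ring1A/B* libraries labelled mutant EB. *Foxd1* was at 1.19 and 1.35 TPM in those labelled control ESC and at 4.29 and 5.04 TPM in those labelled mutant EB, and *Foxe1* at 0.392 and 0 TPM and at 9.84 and 9.8 TPM. *Foxf2* was at 3.86 and 3.82 TPM and *Foxd2* at 4.63 and 3.21 TPM in the latter. The labelled stage differs between these 2 groups as well as the labelled genotype, so neither can be credited with a difference.

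In the other *Ring1A/B* groups the name gave another condition than the label. *Klf4*, a naive marker, was at 9.9 and 7.38 TPM in the libraries labelled mutant ESC and at 665 and 709 TPM in those labelled control EB, while *Fgf5*, a formative marker, was at 28 and 27.5 TPM and 0.54 and 0.791 TPM. *Foxp1* was at 29.7 and 31.2 TPM and *Foxi3* at 42 and 35.8 TPM in the former. *Foxp1* was at 5.92 and 5.9 TPM and *Foxo6* at 17.9 and 18.9 TPM in the latter. In the tested lines low *Klf4* with high *Fgf5* was the pattern of control EBs, so the markers of these libraries went against their labels.

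Libraries with matching label and name were fewer in the other 3 lines, with 2 in the *Pcgf2/4* line, 3 in the *Pcgf3/5* line and 2 in the *Pcgf6* line. In the *Pcgf2/4* line *Foxp1* was at 5.73 TPM in 1 library labelled control ESC and at 39.1 TPM in 1 labelled mutant EB, and *Foxi3* at 0.889 and 28.8 TPM. The targeted genes were higher in the latter, with *Pcgf2* at 46.3 and 55 TPM and *Bmi1*, which encodes PCGF4, at 5.47 and 10 TPM. Gene-level TPM did not bear out its mutant label, but the labelled stage differs too, so these values cannot decide about the label. In the *Pcgf3/5* line *Foxp1* was at 2.21 TPM in the library labelled control ESC, 22 TPM in that labelled control EB and 28 TPM in that labelled mutant EB. There *Pcgf3* was at 29.2, 29.6 and 27.6 TPM and *Pcgf5* at 24.7, 22.9 and 21.3 TPM, so both were still near control level. In the *Pcgf6* line *Foxq1* was at 1.03 TPM in the library labelled control ESC and at 18.2 TPM in that labelled mutant EB, with *Pcgf6* at 91.5 and 46.3 TPM. Over all 32 libraries of these lines *Foxp1* ran from 1.91 to 41.4 TPM, *Foxi3* from 0.169 to 42 TPM and *Foxq1* from 0.0333 to 33.2 TPM with a median of 1.04 TPM.

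**Figure D4:**
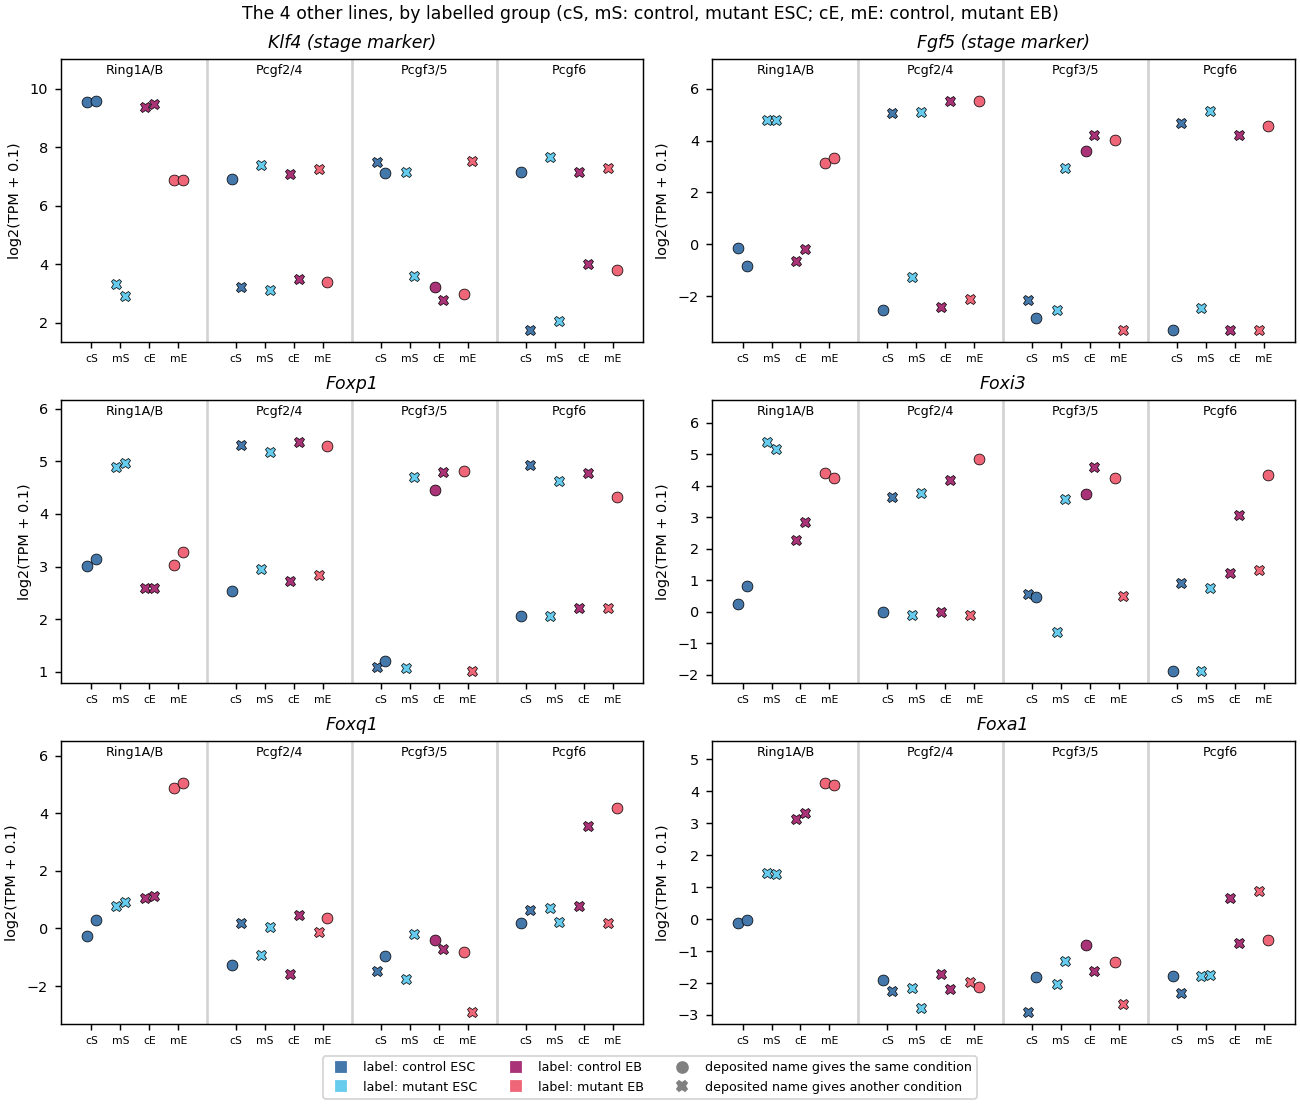
log2(TPM + 0.1) of the stage markers *Klf4* and *Fgf5* and of *Foxp1*, *Foxi3*, *Foxq1* and *Foxa1* in each library of the other 4 lines, for *Ring1A/B*, *Pcgf2/4*, *Pcgf3/5*, or *Pcgf6*, by labelled group (c control, m mutant, S ESC, E EB), with circles where the deposited name gives the same condition and crosses where it gives another. The *Ring1A/B* libraries labelled mutant EB, both circles, have the highest *Foxq1* (29.2 and 33.2 TPM).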

How the data were processed

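RNA-seq was measured in 59 libraries. The authors aligned reads with STAR (version 2.5.2b) to mm9 and deposited TPM per gene symbol, which sum to 1000000 in each library. Depth is unknown, so no counting interval or floor is given, and 6039 to 9139 symbols were at 0 per library. DESeq2, named in the submitters' processing notes, needs counts and was not run. With limma (version 3.58.1, R version 4.3.3), log2(TPM + 0.1) was fitted per line over its 4 groups, with an empirical Bayes trend, leaving out genes at 0 in every library of the line. The p-values were adjusted by Benjamini-Hochberg over all genes tested, and the fit was checked on simulated data. Same-numbered *Pcgf1*-line libraries deviated together (r = 0.317 to 0.653 over 27 pairs and 13400 genes), where the number comes from the labels, so fits with the number as a block are given. Different-numbered libraries ran from -0.508 to 0.621 over 108 pairs (median -0.253, against 0.433). The highest was *Pcgf1*-KO EB 4 with control EB 5, of 1 library series. These r do not tell the replicate number from the series as the pairing unit. The title and the characteristics of a *Pcgf1*-KO EB library give different replicate numbers (4 and 5), and the title was followed. Genes were named when called in at least 1 of 10 comparisons (20 genes) or at a group mean of at least 5 TPM (21 genes). The totals count 1 forkhead gene and 1 gene of a pathway list that are not reported here. Members and lists were chosen with earlier results of these data known. Gene positions are from GENCODE in mm9, and promoter windows from RefSeq.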

Additional observations from a re-analysis of the deposited data

Results flagged for a closer look

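Differences between control and *Pcgf1*-KO cells in the ESC-to-EB change stood out for *Foxp4* and *Foxq1*. *Foxp4* was higher in EBs than in ESCs in all 4 same-numbered control pairs, by 0.21 to 0.92 on the log2 scale, and lower in all 5 *Pcgf1*-KO pairs (-0.44 to -0.07). The test of this difference with the replicate block gave a log2 value of -0.80 (SE 0.13, limma adjusted p = 0.00858), and without the block the difference was not called. For *Foxq1* the same test gave 2.94 (SE 0.63, limma adjusted p = 0.0334) with the block and no call without it. With 1 mean per library series and group, the test called 0 of 20594 genes, with or without the series as block. In the *Ring1A*-pm; *Ring1B*-cpm line *Foxp4* went the other way in controls, from 94.5 and 59 TPM in ESCs to 30.6 and 37.5 TPM in EBs. Mutant ESCs there, at 47.2 and 49.2 TPM, lay below control ESCs, and *Foxp4* was not called in that line without the block. In 91 combinations of a forkhead gene and a group of 4 or 5 libraries, 0 had a single library standing apart by its gap to the others. Most of these libraries had a close neighbour of the same series, and such a library could hardly stand apart alone. The chance rate of about 1 in 20 holds for independent libraries only, so little can be read from this count.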

How the results depend on the processing

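No direction of a forkhead gene called without the block reversed under any alternative run. These calls were kept in 660 gene-and-alternative combinations and lost in 211. The genes were picked by their calls, so reversals were unlikely from the start. Results named only with the block were not checked in this way. In the *Pcgf1* line the replicate block, which pairs same-numbered libraries, raised the forkhead calls to 24 (control EBs against ESCs), 6 (*Pcgf1*-KO against control ESCs), 6 (the same in EBs), 21 (*Pcgf1*-KO EBs against ESCs) and 2 (difference of the KO effects). Library series as block, an alternative chosen after seeing the data, gave 24, 6, 8, 22 and 2, beside 44.9%, 6.54%, 12%, 38.3% and 2.36% of all genes. A fit on 1 mean per library series and group, also chosen then, gave 6, 0, 0, 6 and 0, beside 13.6%, 0%, 0.0194%, 7.61% and 0% of all genes. With the series as block it gave 22, 1, 4, 14 and 0, beside 36.8%, 0.529%, 3.11%, 27.6% and 0%. Fitting only the groups compared gave 0 in ESCs and 0 in EBs for *Pcgf1*-KO against control (0.476% and 0.347% of all genes), a pseudocount of 1 TPM gave 0 in ESCs (1.13%), and genes with a mean of at least 1 TPM gave 1 of 23 in EBs (2.81%). Leaving out 1 library gave 9 to 12, 0 to 1, 2 to 3, 8 to 11 and 0 calls in the 5 comparisons.

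In the *Ring1A*-pm; *Ring1B*-cpm line control EBs against ESCs gave 1 call with a pseudocount of 1 TPM, 5 with a mean of at least 1 TPM, 7 with median-of-ratios scaling, 6 with the replicate block and 1 with only the groups compared, beside 3.95%, 8.2%, 5.77%, 9.95% and 2.42% of all genes. The replicate block gave 18 of 44 in mutant EBs, beside 10.1% of all genes, where r between same-numbered libraries was 0.106 to 0.381 and the 2 numbers were not taken as pairs, and changed the ESC count from 6 to 7 (6.54%). Only the groups compared gave 0 in mutant ESCs and 1 in mutant EBs (0% and 0.862%). Leaving out 1 library, with the lone sample assumed to vary like the other groups, gave 0 to 1, 0, 0 to 6, 0 to 1 and 0. The cause was not tested. Depth is unknown in TPM, and many of the genes that moved lie under 3 TPM, where the pseudocount sets much of a fold change.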
